A study of Homo sapiens with 48 samples.

Results

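Of 11249 RELA regions called on chromosomes 1 to 22 and X after 30 min of TNFα in L3.6pl cells, an established human pancreatic ductal adenocarcinoma line, 2283 were transient and lay in chromatin without H3K27ac in vehicle. These members were chosen by the peak lists alone. They overlapped, by at least 1 bp, no RELA region of 6 h of TNFα and no region of RELA in vehicle, RELB in vehicle, RELB after 6 h of TWEAK or FOSL1 in vehicle, and no vehicle H3K27ac peak lay within 500 bp of their summit. Applied in turn, the RELA list of 6 h left 6170, while the H3K27ac rule on its own would leave 4488. The further lists of RELA and RELB in vehicle and RELB after TWEAK left 5665, FOSL1 left 3297, and the H3K27ac rule left 2283. Every member is counted in each share below, with no filter on weak peaks.

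The study mapped RELA, RELB and H3K27ac by ChIP-seq in vehicle (PBS) and after TNFα or TWEAK for 30 min or 6 h, and FOSL1 in vehicle, in 16 conditions of 3 replicates each. The files hold 1 peak list per condition, so the spread between replicates cannot be measured. Regions are the units of every interval and test. The peaks of the RELA list of 30 min of TNFα bear a single replicate's name as well as the word merged, and whether all 3 replicates stand behind them could not be settled. The labels do not say how long vehicle was given, the read depth is unknown, and all samples are of this single cell line. Vehicle H3K27ac lay within 1 kb of a start site of 5 of 5 epithelial marker genes (KRT8, KRT18, KRT19, EPCAM and CDH1). Of 5 genes of other cells it was absent from PTPRC and CD3E of leukocytes, and present at COL1A1, PECAM1 and CD68.

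NF-κB dimers are held in the cytoplasm by IκB proteins until a signal such as TNFα leads to IκB degradation. RELA then enters the nucleus and binds a short, partly palindromic DNA element, and newly made IκBα and A20, the product of TNFAIP3, limit the response in time. TWEAK acts through its own receptor and chiefly drives the noncanonical route, in which RELB is the main DNA-binding subunit. H3K27ac marks active promoters and enhancers, and a site without it before stimulation is often called latent or inactive. FOSL1 is an AP-1 subunit that occupies many active enhancers of epithelial cancer cells.

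The sequences below show the DNA under the strongest members, 60 bp to each side of the RELA summit, read from hg38 on the plus strand. Capitals mark a match to the NF-κB consensus on either strand. The first 6 are the highest by RELA fold enrichment among all members and among those with H3K27ac after 30 min of TNFα, outside tandem repeats, exons and a chromosome from which no sequence is printed, on which the regions of SNX16 and ST18 lie. TSPAN6 among them had no H3K27ac peak in any treated list. PLEKHG7 and NEDD4L were added after their values were seen, as the next strongest members without any H3K27ac peak.

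TLN2, chr15:62482792-62482912: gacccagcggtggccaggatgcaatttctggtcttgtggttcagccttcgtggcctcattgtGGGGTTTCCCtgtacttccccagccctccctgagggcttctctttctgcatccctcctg
LRRC32, chr11:76690860-76690980: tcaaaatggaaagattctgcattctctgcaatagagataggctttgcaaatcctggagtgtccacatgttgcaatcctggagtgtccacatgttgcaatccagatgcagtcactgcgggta
CIITA, chr16:10871811-10871931: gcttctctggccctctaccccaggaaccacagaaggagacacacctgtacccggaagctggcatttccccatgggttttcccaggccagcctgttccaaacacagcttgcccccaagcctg
TSPAN6, chrX:100615154-100615274: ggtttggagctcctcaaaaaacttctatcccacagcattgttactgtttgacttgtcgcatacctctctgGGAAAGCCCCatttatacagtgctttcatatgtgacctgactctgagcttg
NSRP1, chr17:30134679-30134799: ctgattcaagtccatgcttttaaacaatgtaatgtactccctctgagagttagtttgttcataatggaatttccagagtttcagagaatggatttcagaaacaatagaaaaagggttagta
CC2D1B, chr1:52368986-52369106: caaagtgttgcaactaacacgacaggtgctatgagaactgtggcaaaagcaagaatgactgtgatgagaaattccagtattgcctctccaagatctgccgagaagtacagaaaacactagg
PLEKHG7, chr12:92705682-92705802: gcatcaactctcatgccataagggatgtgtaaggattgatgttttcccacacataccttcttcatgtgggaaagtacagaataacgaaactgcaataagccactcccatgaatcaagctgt
NEDD4L, chr18:58191770-58191890: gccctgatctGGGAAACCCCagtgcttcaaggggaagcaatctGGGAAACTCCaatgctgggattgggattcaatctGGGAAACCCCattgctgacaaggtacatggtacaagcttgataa

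Matches lay in 3 of these 8 windows, in TLN2, TSPAN6 and NEDD4L, and NEDD4L held 3 of them. The other 5 windows hold no run of letters that fits the consensus, which says nothing of whether RELA can bind there.

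H3K27ac was found after 30 min of TNFα near 606 of the 2283 members (26.5%, exact 95% interval 24.7 to 28.4%), where found means a peak within 500 bp of the RELA summit. After 6 h of TNFα it was found near 264 (11.6%, 10.3 to 12.9%). After TWEAK it was found near 154 (6.75%, 5.75 to 7.85%) at 30 min and near 88 (3.85%, 3.10 to 4.73%) at 6 h. The share was thus highest at 30 min of TNFα. It fell by 6 h, while the lists themselves grew from 53861 peaks at 30 min to 61154 at 6 h of TNFα. That RELA was called at 30 min and not at 6 h is fixed by the choice of members. Among all 4488 RELA regions of 30 min of TNFα without vehicle H3K27ac, 32.9% and 23.8% had a peak at 30 min and 6 h of TNFα, and 16.6% and 11.4% at 30 min and 6 h of TWEAK. The members therefore sat below the unmarked RELA regions as a whole in all 4 lists. That background also holds regions of the lists that the rule removes, so the difference is in part set by the choice of members. A gain against vehicle was fixed by the way the members were chosen and was not tested.

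**Figure D1:**
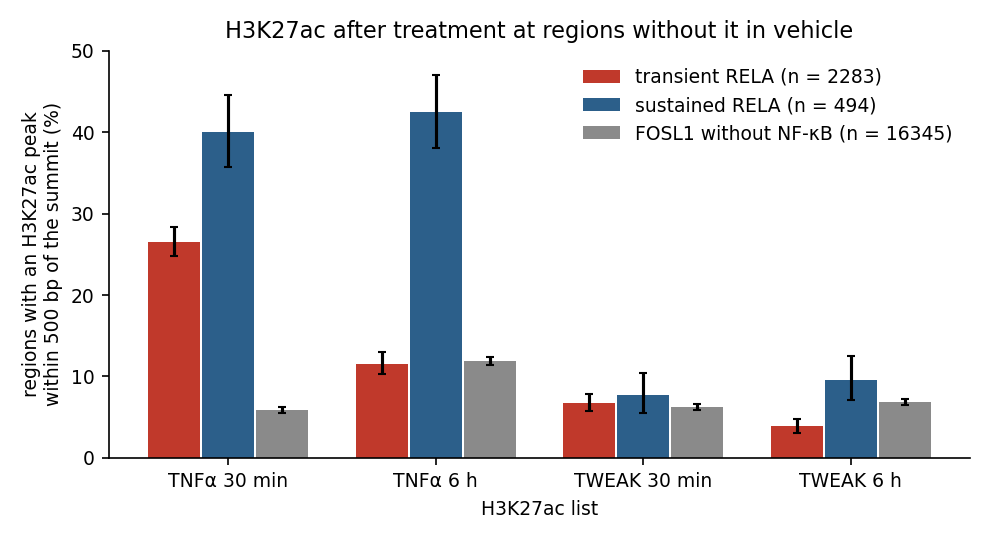
Bars give the percentage of regions with an H3K27ac peak within 500 bp of the summit in each of the 4 treated lists (x axis), for transient unmarked RELA regions, sustained unmarked RELA regions and unmarked FOSL1 regions that meet no RELA or RELB list; error bars are exact 95% intervals over regions, not over replicates. The transient regions stand at 26.5% after 30 min of TNFα and at 11.6% after 6 h, while the sustained regions stand at 40.1% and 42.5%.

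The same members were compared between lists with a two-sided exact McNemar test on the regions marked in 1 list alone. At 30 min of TNFα 403 members were marked that were not at 6 h, and 61 were marked at 6 h alone, a ratio of 6.61 (5.04 to 8.80, exact McNemar p = 7.14e-63, adjusted p = 2.62e-62). Against 30 min of TWEAK the numbers were 479 and 27, a ratio of 17.7 (12.0 to 27.2, exact McNemar p = 4.71e-108, adjusted p = 3.46e-107). At 6 h, TNFα against TWEAK gave 198 and 22, a ratio of 9.0 (5.78 to 14.7, exact McNemar p = 1.37e-36, adjusted p = 3.01e-36). The ratio to 30 min of TWEAK moved most with the processing, to 38.2 outside tandem repeats and to 7.89 where the peak had to cover the summit. The ratio of 30 min to 6 h of TNFα was 3.16 under that last setting and 12.6 with the 50000 strongest H3K27ac peaks of each list, and that of TNFα to TWEAK at 6 h ran from 5.20 to 13.7. Within TWEAK, 105 members were marked at 30 min alone and 39 at 6 h alone (exact McNemar p = 3.53e-08, adjusted p = 5.55e-08). H3K27ac near the transient sites was thus more frequent after TNFα than after TWEAK at either time, and more frequent at 30 min than at 6 h of either ligand. The 22 tests of this family were adjusted together by the method of Benjamini and Hochberg.

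Most members had no H3K27ac in any treated list, namely 1594 (69.8%). The largest marked class, 344 members (15.1%), had it after 30 min of TNFα alone. A further 103 (4.51%) had it at both times of TNFα and in neither TWEAK list. Only 49 (2.15%) had it at 6 h of TNFα alone, and 37 (1.62%) in all 4 lists.

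Members were next set against 494 sustained unmarked regions, which meet every other condition but overlap a RELA region of 6 h of TNFα. Of these, 198 (40.1%, 35.7 to 44.6%) had H3K27ac at 30 min and 210 (42.5%, 38.1 to 47%) at 6 h. The odds of H3K27ac were lower in the transient regions at 30 min (odds ratio 0.540, 0.439 to 0.666, Fisher's exact test, two-sided, p = 4.18e-09, adjusted p = 7.67e-09) and lower still at 6 h (0.177, 0.141 to 0.222, p = 1.04e-51, adjusted p = 3.26e-51). The change between the times differed as well. In the sustained regions 58 were marked at 30 min alone and 70 at 6 h alone (ratio 0.829, 0.575 to 1.19, exact McNemar p = 0.331, adjusted p = 0.364). Set against the 403 and 61 of the transient regions, the odds ratio was 7.93 (5.01 to 12.7, Fisher's exact test, two-sided, p = 7.43e-21, adjusted p = 1.49e-20). This test was chosen with the data in view.

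The difference at 30 min went with the strength of RELA. Members had a median RELA fold enrichment over input of 5.77, against 8.14 in the sustained regions. The median −log10 q, the significance of a peak, was 6.90 and 15.3. With both groups held to a RELA fold enrichment of 5 to 8, 364 of 1396 transient regions (26.1%) and 60 of 195 sustained regions (30.8%) had H3K27ac at 30 min, an odds ratio of 0.794 that missed the threshold (Fisher's exact test, p = 0.167). At 6 h the same strength class gave 164 of 1396 (11.7%) and 82 of 195 (42.1%), which is an odds ratio of 0.184 (p = 2.46e-22 by Fisher's exact test). The difference at 30 min also missed the threshold where the H3K27ac peak had to cover the summit (odds ratio 0.791, Fisher's exact test, p = 0.178).

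FOSL1 regions of vehicle that overlap no RELA or RELB list and lack vehicle H3K27ac show the level of the same lists at bound sites without NF-κB. Of 16345 such regions 967 (5.92%, 5.56 to 6.29%) had H3K27ac at 30 min of TNFα, so the odds in the transient RELA regions were 5.75 times as high (5.12 to 6.44, Fisher's exact test, two-sided, p = 9.12e-176, adjusted p = 2.01e-174). At 6 h of TNFα the FOSL1 regions stood at 11.9%, and a difference from the 11.6% of the transient regions was not detectable (odds ratio 0.969, 0.842 to 1.11, Fisher's exact test, p = 0.678, adjusted p = 0.678). At 30 min of TWEAK the FOSL1 regions stood at 6.20% (odds ratio 1.09, 0.912 to 1.31, Fisher's exact test, p = 0.311, adjusted p = 0.360). At 6 h of TWEAK they stood at 6.81%, above the transient regions (odds ratio 0.549, 0.434 to 0.686, Fisher's exact test, p = 1.46e-08, adjusted p = 2.47e-08). The FOSL1 regions moved the other way between the times of TNFα, with 597 marked at 30 min alone and 1574 at 6 h alone (exact McNemar p = 6.32e-101, adjusted p = 3.47e-100).

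The H3K27ac peaks near members were short, weak and mostly beside the summit. At 30 min of TNFα 600 broad peaks accounted for the 606 members, with a median length of 436 bp against 676 bp in the whole list. Their median fold enrichment was 2.79 against 3.05, and their median −log10 q 3.20 against 5.01. Only 183 of the 606 (30.2%) covered the RELA summit itself, and in the others the edge of the peak lay a median of 148 bp away. A peak of vehicle overlapped 30 of the 600 (5.00%), a share that the rule on vehicle H3K27ac largely fixes. Coverage by peaks of 30 min of TNFα was 14.2% of members at 200 bp on one side and 13.9% on the other, and 8.02% at the summit. Its highest value, 16.5%, lay 300 bp from the summit.

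**Figure D2:**
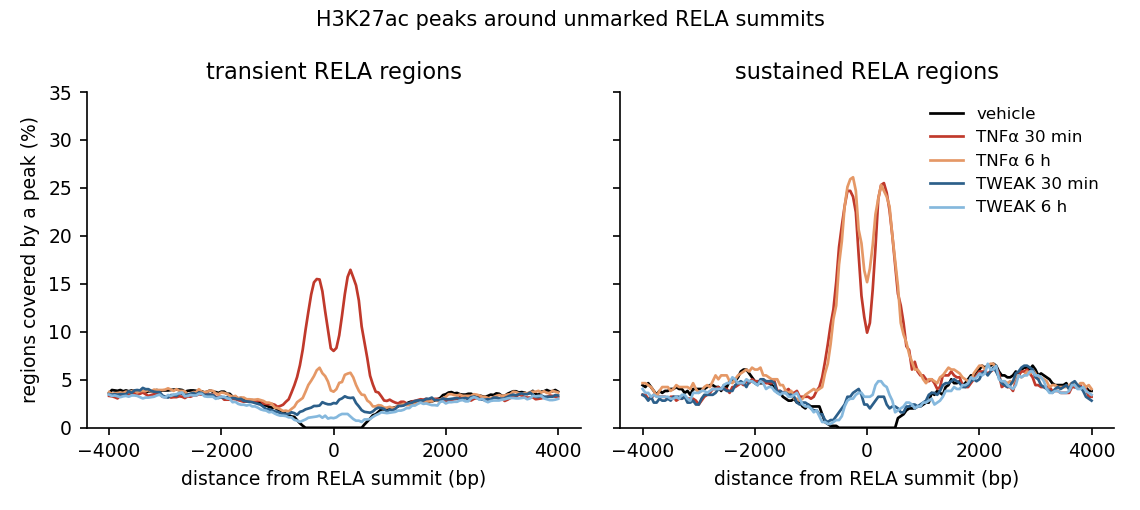
Lines give the percentage of regions covered by an H3K27ac peak (y axis) by distance from the RELA summit in bp (x axis), for transient regions on the left and sustained regions on the right, in vehicle and after each treatment. In the transient regions TNFα at 30 min gives a pair of shoulders with 16.5% at 300 bp and a dip to 8.02% at the summit; the vehicle line is at 0 near the summit because the regions were chosen for that.

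Stronger RELA regions were marked more often. H3K27ac at 30 min of TNFα was found near 18.0% of the 590 members with a RELA fold enrichment under 5 and near 23.1% of the 741 from 5 to 6. The share was 29.5% of the 655 from 6 to 8 and 45.8% (40.0 to 51.6%) of the 297 at 8 or more. At 6 h the shares in the same order were 7.97%, 11.3%, 12.2% and 17.8%. Marked members had a median RELA fold enrichment of 6.16 and those without a mark 5.50.

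RELA strength was itself tied to whether a region was kept at 6 h, as the lists define it. Of the unmarked regions outside the other lists, 6.20% of those with a fold enrichment under 5 were sustained, 7.72% from 5 to 6, 16.9% from 6 to 8 and 46.7% at 8 or more. A weak region that falls under the calling threshold at 6 h and a region that RELA has left cannot be told apart in peak lists. A RELA region of 6 h lay within 500 bp of the summit of 7 members (0.307%) without overlapping them, and within 10 kb of 217 (9.51%).

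The distance to H3K27ac of untreated cells went with the mark too. The median member lay 14764 bp from the nearest vehicle H3K27ac peak, with quartiles of 4810 and 41208 bp. At 30 min of TNFα 35.4% of the 257 members at 0.5 to 2 kb were marked, 32.5% of the 670 at 2 to 10 kb, 26.3% of the 868 at 10 to 50 kb and 14.1% (11.2 to 17.6%) of the 488 beyond 50 kb. At 6 h the shares fell from 21.0% to 6.56% over the same classes. In the sustained regions beyond 50 kb they were 26.0% at 30 min and 36.5% at 6 h.

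**Figure D3:**
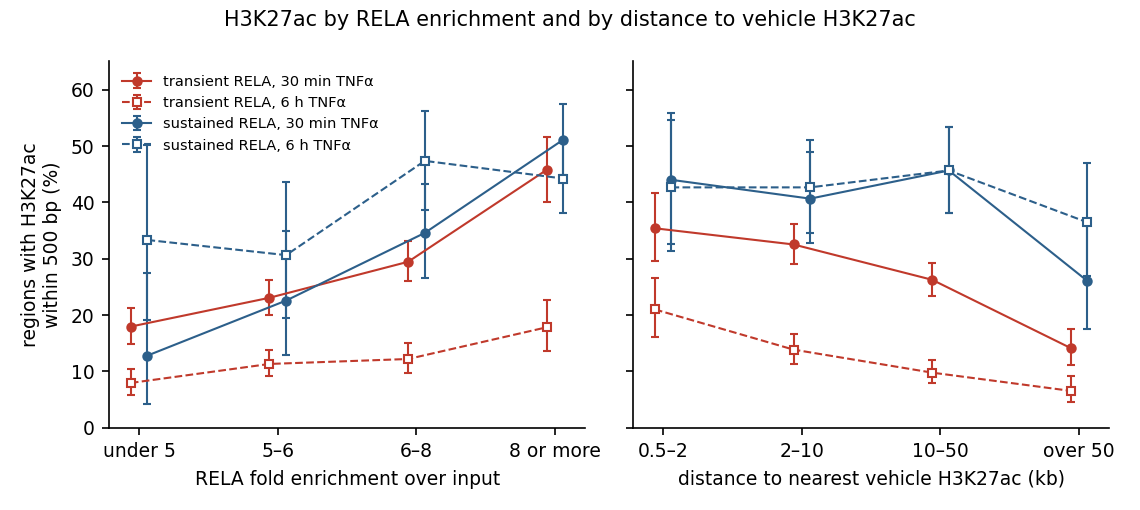
Points give the percentage of regions with H3K27ac within 500 bp of the summit (y axis) by RELA fold enrichment over input (left x axis) and by distance in kb to the nearest vehicle H3K27ac peak (right x axis), for transient and sustained unmarked RELA regions at 30 min (filled) and 6 h (open) of TNFα, with exact 95% intervals over regions. In the transient regions the share at 30 min goes from 18.0% to 45.8% with RELA enrichment and from 35.4% to 14.1% with distance.

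The limit of 500 bp cuts through a range of distances to vehicle H3K27ac. Of RELA regions that meet the conditions on the other lists, the 323 with vehicle H3K27ac 1 to 500 bp from the summit, just outside the rule, had H3K27ac at 30 min of TNFα in 95.4% of cases. The 100 at 501 to 1000 bp, just inside it, had it in 45.0%, and the 157 at 1001 to 2000 bp in 29.3%. That last share stood below the 32.5% of members at 2 to 10 kb, so the fall with distance was not even. The treated lists were read with the same 500 bp window, so a vehicle peak that stayed counts as H3K27ac just outside the rule. The step at the limit is thus in part set by the definition and does not compare gains. With no vehicle H3K27ac allowed within 2000 bp, 30 min against 6 h of TNFα still gave a ratio of 7.49 (exact McNemar p = 7.24e-59).

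Of the 10 strongest members, each given with its nearest protein-coding gene, 8 had H3K27ac at 30 min of TNFα, and 5 of these had no peak at 6 h. The region in an intron of TLN2, which encodes a talin linking integrins to actin, had the highest RELA fold enrichment, 18.7, and an H3K27ac peak of 511 bp and fold enrichment 3.19 at 30 min of TNFα alone. The region 20173 bp upstream of LRRC32, which encodes a surface anchor for latent TGF-β, followed at 18.3 and was likewise marked at 30 min alone. MEAK7 (16.6, in an exon), LY96 (15.1) and NSRP1 (13.9) had the same single mark. LY96 encodes MD-2, the partner of TLR4 in sensing lipopolysaccharide, and its region lay 89310 bp from the start site in sequence scored as a tandem repeat.

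Other strong members kept a mark at 6 h or never had one. The region in an intron of CIITA, the master regulator of MHC class II genes, had a RELA fold enrichment of 14.7. Its H3K27ac peak covered the summit over 1143 bp at 30 min with a fold enrichment of 4.0, and a peak of 459 bp and 3.50 lay 187 bp away at 6 h. The region 653764 bp from SNX16 (17.7) was covered at both times of TNFα. CC2D1B (13.8) had H3K27ac at both times of TNFα and at 6 h of TWEAK. ST18 (15.7) and TSPAN6 (14.0) had none in any list, so high RELA enrichment did not go with H3K27ac in each case. Below these 10, ROCK2 (13.7), which encodes a kinase of the actin cytoskeleton, was marked at 30 min by TNFα and TWEAK, and RALGDS (13.7) at 30 min of TNFα alone.

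The 37 members with H3K27ac in all 4 treated lists were led by those nearest to NFIB (RELA fold enrichment 11.7), IREB2 (10.7), DNM3 (10.6), ALDH5A1 (10.1) and ST3GAL1 (9.34). In this order they lay 200928, 26234, 61207, 9644 and 279409 bp from the start site. At the region of NFIB, a nuclear factor I gene, the H3K27ac fold enrichment was 4.22 and 3.37 at 30 min and 6 h of TNFα. It was 3.25 and 2.74 at 30 min and 6 h of TWEAK. At the region of ALDH5A1, which encodes succinic semialdehyde dehydrogenase, the values in the same order were 4.34, 3.42, 3.67 and 2.69. At both regions, 30 min of TNFα gave the highest of the 4 values, whereas at that of IREB2 30 min of TWEAK (3.26) stood above 30 min of TNFα (3.02). The TWEAK peak there was 227 bp long and lay 161 bp from the summit, while the TNFα peak covered the summit over 1064 bp. These values thus come from stretches of unlike length and do not rank the ligands.

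Members lay away from promoters. Within 1 kb of a start site of a protein-coding gene there were 105 of 2283 (4.60%, 3.78 to 5.54%), against 16.8% of all 11249 RELA regions and 5.47% (3.63 to 7.85%) of the sustained regions. Introns of protein-coding genes held 931 (40.8%), their exons 63 (2.76%), and 1184 (51.9%) lay between such genes. Noncoding genes were not read, so a summit in one of them counts as between genes. Regions with vehicle H3K27ac had been removed, so the share near start sites is in part set by the choice of members. The median distance to a start site was 35098 bp.

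Members marked at 30 min of TNFα lay in introns more often than those that were not, 51.5% (47.4 to 55.5%) against 36.9% (34.6 to 39.3%). They lay between genes less often, 38.8% against 56.6%, and nearer to a start site, with medians of 26386 and 40099 bp. These groups also differed in median RELA fold enrichment, 6.16 against 5.50, and in tandem repeats, 5.61% against 11.3%. Near start sites (1 kb) 37 of 105 members were marked (35.2%), and beyond 50 kb 199 of 947 (21.0%). Over the chromosomes the share marked ran from 14.7% (5 of 34 members on chromosome 21) to 37.5% (15 of 40 on X), both on few regions.

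**Figure D4:**
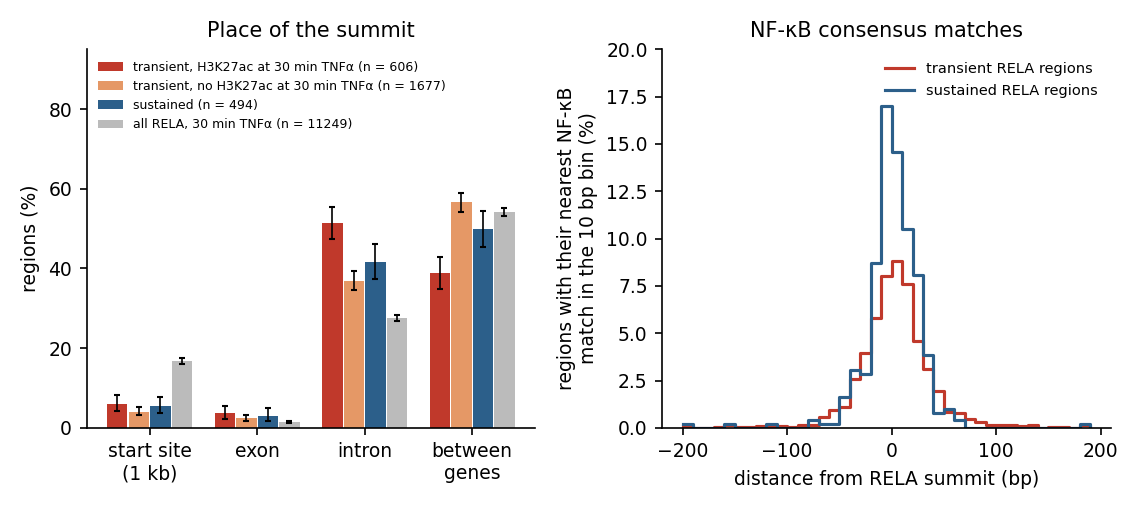
Left, bars give the percentage of RELA summits (y axis) by place in the annotation of protein-coding genes, for transient regions with and without H3K27ac at 30 min of TNFα, sustained unmarked regions and all RELA regions of 30 min of TNFα, with exact 95% intervals over regions. Right, steps give the percentage of regions whose nearest NF-κB consensus match has its centre in each 10 bp bin around the summit; 51.5% of the marked transient regions lie in introns, and the matches of both groups gather at the summit.

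The strongest members at promoters belonged to genes of varied roles. OLR1, the receptor for oxidised LDL, had a RELA summit 83 bp from its start site with a fold enrichment of 11.4 and H3K27ac at both times of TNFα and at 30 min of TWEAK. MYH14, a nonmuscle myosin heavy chain, had a summit 32 bp from a start site, a fold enrichment of 10.0 and H3K27ac at 30 min of both ligands. PGLYRP2 (9.46), a peptidoglycan recognition protein, was marked at 30 min of TNFα alone, ANO9 (9.20) at both times of TNFα, KLK10 (9.0), a kallikrein-related protease, also at 30 min of TWEAK, and CD34 (8.85) in all 4 lists. PLCG2 (10.6), PILRA (9.74), OXTR (9.62), the oxytocin receptor gene, and UNC93A (8.88) had no H3K27ac in any list. Thus 4 of these 10 promoter regions stayed without a called peak.

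The NF-κB consensus was present in the 200 bp around 1182 of 2283 summits (51.8%, 49.7 to 53.8%). Windows of the same length held it in 1.66% and 2.41% of cases 2000 bp to either side. All RELA regions of the list held it in 34.8% and the sustained regions in 73.3% (69.1 to 77.1%). Of 1218 members with a match within 200 bp of the summit, 809 (66.4%) had it within 25 bp and 1087 (89.2%) within 50 bp. Where a match was present it thus mostly lay close to the summit. In 1101 members the 200 bp window held no match, and matches were less frequent than in the sustained regions.

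The most frequent nearest matches, counted once a member and read on the strand that starts with GGG, were GGGAAATTCC in 194 of the 1182 members (16.4%), GGGAATTTCC in 164 (13.9%) and GGGGAATTCC in 133 (11.3%). The element of the immunoglobulin light chain enhancer, GGGACTTTCC, was found in 74 (6.26%). Windows without the consensus often held a near relative. The word GGANNTTCC, searched after the sequences above had been seen and overlapping many consensus matches, was present in 880 members (38.5%) and in 2.54% of windows at 2000 bp. In 271 members (11.9%) it stood without the consensus, as in the window of NSRP1 printed above. One or the other was present in 1453 members (63.6%).

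H3K27ac was less frequent at members with the consensus. It was found at 30 min of TNFα near 282 of 1182 with a match (23.9%, 21.5 to 26.4%) and near 324 of 1101 without (29.4%, 26.7 to 32.2%). Outside tandem repeats the shares were 23.5% (21.1 to 26.1%) and 33.3% (30.2 to 36.5%). In both comparisons the intervals do not overlap. Among members with a RELA fold enrichment of at least 8 they were 40.9% (33.1 to 49.1%) and 51.0% (42.6 to 59.5%), intervals that overlap. The word GGANNTTCC went slightly the other way, with 43.1% (39.1 to 47.1%) of marked and 36.9% (34.6 to 39.3%) of unmarked members holding it, intervals that meet at their ends. With either word counted, the shares were 62.4% (58.4 to 66.2%) of marked members and 64.1% (61.8 to 66.4%) of the others, intervals that overlap.

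Motifs of other factors were searched in the same windows, and the AP-1 and ETS words exceeded the surrounding DNA with intervals that did not overlap. The AP-1 word TGANTCA, searched on both strands as were all others, stood in 8.32% (7.22 to 9.53%) of members and in 4.99% and 5.12% of windows 2000 bp away, against 20.0% (16.6 to 23.8%) of the sustained regions. FOSL1 regions had been removed from both groups. The TEAD word GGAATG stood in 15.7% (12.2% and 13.4% away), the forkhead word TGTTTAC in 3.90% (3.11% on both sides), the GATA word GATAAG in 7.14% (5.52% and 5.65%) and the ETS word CCGGAA in 4.29% (3.50 to 5.21%, against 1.49% and 1.88%). All RELA regions held the ETS word in 6.94% and the sustained regions in 2.63% (1.41 to 4.46%). On the other strand this word reads TTCCGG and can share letters with an NF-κB match. Such overlaps were not taken out. In members with H3K27ac at 30 min of TNFα, TEAD stood at 17.8% (14.9 to 21.1%) and forkhead at 5.45% (3.78 to 7.56%). In those without they stood at 14.9% (13.2 to 16.7%) and 3.34% (2.53 to 4.31%).

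Other NF-κB lists that the choice of members did not use rarely met these sites. RELA after 30 min of TWEAK overlapped 6 members (0.263%) and RELA after 6 h of TWEAK 13 (0.569%), against 13.9% and 18.6% of all unmarked RELA regions. RELB after 30 min and 6 h of TNFα overlapped 9 (0.394%) and 13 (0.569%), against 15.3% and 17.6%. RELB after 30 min of TWEAK overlapped 8 (0.350%), against 13.1%. The background holds regions of the lists that the rule removes, and shares peaks with them, so the low shares are in part set by the choice of members. The sustained regions, which passed the same removals, were low as well. RELA after 30 min and 6 h of TWEAK overlapped 2.83% and 1.21% of them, and RELB after 30 min and 6 h of TNFα 0.810% and 1.62%. For RELB after 30 min of TWEAK it was 0.202%. Rare overlap is thus not particular to the transient sites.

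Near genes of the TNFα and NF-κB response, the members were compared with the whole annotation, in which 11.7% of 19618 protein-coding genes had a member within 50 kb of a start site. Among NF-κB and IκB genes 6 of 10 did (NFKB1, NFKB2, NFKBIA, NFKBIB, NFKBIZ and BCL3). Cytokines and growth factors had 8 of 15 (TNF, LTA and LTB, which share a region, and CSF1, CSF3, EBI3, IL32 and LIF). Adhesion and matrix genes had 6 of 12, with ICAM1, ICAM4 and ICAM5 in a single cluster beside LAMB3, MMP9 and MMP13. Receptors and ligands had 4 of 12, AP-1 and early factors 3 of 12, and chemokines (CCL2 and CCL5), feedback regulators (TNFAIP3 and CYLD) and survival genes (BCL2A1 and GADD45B) 2 of 11, 2 of 10 and 2 of 10. Chemokine genes had a sustained unmarked region in 6 of 11 cases, beside 3.34% of all genes. These lists are short, and genes of 1 cluster share members, so the counts are a description.

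Of the 15 strongest members near these genes, 8 had H3K27ac at 30 min of TNFα, 3 at both times and 7 in no list. The region 19658 bp upstream of CCL2, the monocyte chemokine, had a RELA fold enrichment of 8.88, and that 17704 bp upstream of TNFAIP3 one of 8.78. Both had H3K27ac at 30 min of TNFα alone. The region in SPIDR, 8032 bp from CEBPD, had a fold enrichment of 8.02 and the same single mark. The region in an intron of LTBR, the lymphotoxin β receptor (8.66), that beside TNF, 2815 bp past its start (8.46), and that upstream of LAMB3 (8.28), a laminin-332 chain, had none in any list. NFKBIZ (7.41), NFKBIB (6.98, in SARS2), MMP9 (6.81, 577 bp upstream of the start) and BCL2A1 (6.21) had none either. NFKB1 (7.38, in an intron) and the region in CASTOR1 near LIF (6.75) had H3K27ac at both times of TNFα.

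ICAM1, which encodes the adhesion molecule bound by leukocyte integrins, held 3 members within 1995 bp. They lay 1286 bp upstream, 178 bp upstream and 682 bp downstream of its start site, with RELA fold enrichments of 6.50, 7.94 and 6.65. All 3 had H3K27ac at 30 min of TNFα, and a single peak of 1131 bp served the 2 upstream ones. At 6 h a peak of 278 bp remained at the most upstream region alone, and neither TWEAK list held a peak within 500 bp. The nearest vehicle H3K27ac lay 8924 bp from the most upstream of them.

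Members seldom stood together. With neighbours joined at under 50 kb, 1956 of 2283 stood alone, 282 formed pairs and 45 formed 14 longer stretches. The longest, 5 members over 33090 bp at LPA, the apolipoprotein(a) gene, had RELA fold enrichments of 3.34 to 5.47 and no H3K27ac at 30 min of TNFα. None of the 5 was scored as a tandem repeat, but the score covers shifts of up to 400 bp only. Whether these weak peaks lie in copies of a longer repeat was not tested. The next stretch, 4 members in 2204 bp at RASA3, had fold enrichments of 2.89 to 4.09, and H3K27ac in all 4, and all 4 lay in tandem repeats. A stretch of 3 from LAMB3 to HSD11B1 spanned 36305 bp with 1 marked member.

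The gene lists that the study drew from its own RNA sequencing were read in the same way. Names of 490 of 626 genes listed as common to TNFα and TWEAK, a list that also takes in the study's few TWEAK-specific genes, were matched, and 263 of 310 TNFα-specific ones. Of the 490, 72 (14.7%, 11.7 to 18.1%) had a member within 50 kb, and of the 263, 52 (19.8%, 15.1 to 25.1%), beside the 11.7% of all genes. Taken from the regions, 137 members (6.00%, 5.06 to 7.05%) lay within 50 kb of a start site of either list, against 9.11% (6.72 to 12.0%) of the sustained regions and 7.92% of all RELA regions. Among members with H3K27ac at 30 min of TNFα it was 48 of 606 (7.92%, 5.90 to 10.4%), and 89 of 1677 (5.31%, 4.28 to 6.49%) among the others, intervals that overlap.

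Tandem repeats held 223 members (9.77%, 8.58 to 11.1%), by a self-match score of the 1000 bp around the summit. The share was 26.2% of all RELA regions and 5.87% (3.97 to 8.32%) of the sustained regions. Of these 223, 15.2% were marked at 30 min of TNFα and 12.6% at 30 min of TWEAK (34 and 28 regions). Of the 2060 members outside tandem repeats the shares were 27.8% and 6.12%, and 12.3% and 3.74% at 6 h of TNFα and TWEAK.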

How the data were processed

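ChIP-seq of RELA, RELB, H3K27ac and FOSL1 was read from 16 deposited peak lists. Groups came from the sample labels. The authors aligned reads by Bowtie2 2.5.0 to hg38 and called peaks with MACS2 against input (cutoff 0.05), narrow for the factors and broad for H3K27ac, with 1 list per condition. The MACS2 version and the filters on reads and repeats are not given in the sources used here. The fold enrichment is the authors' deposited ratio of ChIP over input, and the −log10 q is the deposited significance of a peak, averaged over broad peaks. Other columns were not used.

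Overlaps (1 bp), distances to summits and motifs were computed with pysam 0.24.0, pandas 2.3.3, numpy 2.4.6 and scipy 1.17.1 (Python 3.11.15), hg38 and GENCODE 44. Shares carry exact (Clopper-Pearson) 95% intervals, which cover counting of regions only. Tests were the exact McNemar test on the same regions and Fisher's exact test between groups, both tested on simulated data. Neighbouring regions and regions in 1 list share libraries, so p-values describe these lists and not the spread between replicates. Tandem repeats were scored by the self-match of 1000 bp at shifts of up to 400 bp (limit 0.4).

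The members, gene lists and tests were chosen with earlier results of these data known. Named regions are the 10 with the highest RELA fold enrichment, the 10 highest with H3K27ac at 30 min of TNFα, the 10 highest within 1 kb of a start site, the 15 highest within 50 kb of a listed gene, the 3 stretches with most members (ties broken by the highest RELA fold enrichment) and the 5 highest marked in all 4 treated lists. Sequences are of the 5 highest of the first and of the second set outside tandem repeats and chromosome 8. Exons were left out as well, and PLEKHG7, NEDD4L, the word GGANNTTCC and the test of the change between times were added after the values were seen.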

Additional observations from a re-analysis of the deposited data

How the results depend on the processing

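No paired analysis was possible because each condition has 1 peak list and no list per replicate, and for the same reason no replicate could be left out. Of 101 recomputed values, 87 were counted as unchanged and 0 changed direction. Unchanged means that a test kept its call or that a share stayed within its reported interval. For the number of members it means a count within a fixed fold of the reported one. The number of members ran from 1693 to 2221 under a −log10 q of at least 3, a RELA fold enrichment of at least 5, tandem repeats left out, a 500 bp margin around the other lists or no vehicle H3K27ac within 2000 bp. The 3 comparisons between H3K27ac lists, and those with sustained regions at 6 h and with FOSL1 regions at 30 min, kept direction and call under each of these and under the other H3K27ac definitions. The ratio of 30 min to 6 h of TNFα ran from 3.16 to 12.6, that of TNFα to TWEAK from 7.89 to 38.2 at 30 min and from 5.20 to 13.7 at 6 h. The odds ratio between transient and sustained regions at 30 min missed the threshold in 2 of 10 alternatives, at 0.791 where a peak had to cover the summit (Fisher's exact test, p = 0.178) and at 0.794 with RELA fold enrichments of 5 to 8 (p = 0.167). The cause was not tested. The share marked at 30 min was 8.02% with a peak over the summit, 28.9% within 1000 bp, 14.9% with H3K27ac at a −log10 q of at least 3, 24.4% with the 50000 strongest H3K27ac peaks of each list and 29.5% at a RELA fold enrichment of at least 5. Within 5 kb of a start site lay 16.2% of members. The NF-κB consensus stood in 56.0% at a RELA fold enrichment of at least 5, in 56.6% outside tandem repeats and in 46.0% within 100 bp, and GGANNTTCC in 38.5%. Within 10 kb and 100 kb of a gene of the study's lists lay 2.19% and 9.24%. Depth is unknown, so an absent peak is a peak not called.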
